A study of Mus musculus with 36 samples.

Results

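Tissue-resident alveolar macrophages (TR-AΦ, carrying the CD45.2 allele) from mice that breathed concentrated PM2.5 for 32 weeks were compared with the same cells from mice kept in filtered air (FA). There were 3 libraries in each group. The comparison covers 12191 of the 27562 genes listed, those whose FPKM averaged 1 or more over these 6 libraries. FPKM is a level in which the fragments of a gene are divided by its length and by the mapped fragments of the library. The mean nearest to that limit was 1.0007 FPKM among members and 0.9994 FPKM among the genes left out. Of the members, 9678 were protein-coding, 283 were snoRNAs and 267 were snRNAs.

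All recipients were male C57BL/6J (CD45.2) mice. They were irradiated with the chest shielded by lead, treated with busulfan and given marrow from congenic B6.SJL-Ptprca Pepcb/BoyJ (CD45.1) donors, so FA and PM2.5 mice shared this treatment and differed in the air they breathed. PM2.5 is airborne particulate matter of small aerodynamic diameter, here concentrated from city air in Cleveland. AΦs were sorted as CD64+ CD11c high CD11b low cells, and CD45.2 marks cells of the recipient rather than of the marrow graft. The allele does not say whether a CD45.2 cell was already in the lung at the start, since marrow-derived cells of the recipient that outlived the irradiation would carry it too. The whole series holds 36 libraries in 12 groups of 3, of which 18 are macrophage libraries.

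AΦs live on the air side of the lung. They clear inhaled particles and spent surfactant through scavenger receptors such as Marco and Cd36, digest them in lysosomes, and handle the surfactant lipid under the control of Pparg. They renew themselves locally, hold inflammation in check under resting conditions, and on strong stimulation release cytokines and chemokines through NF-κB, whose inhibitor IκBα (gene Nfkbia) is itself an NF-κB target.

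The sorted cells carried the AΦ markers at overlapping levels in both groups. All 25 AΦ markers passed the limit on level, and their summed level ran from 12911 to 18328 FPKM with FA and from 12893 to 17589 FPKM with PM2.5. In the 6 libraries of CD45.2 monocytes of the same week the same sum ran from 979.6 to 2658 FPKM. Siglecf, a surface lectin used to gate AΦs, lay between 115 and 157 FPKM, and Itgax, which encodes CD11c, between 65.0 and 73.9 FPKM. The 13 monocyte markers summed to 317 to 580 FPKM with FA and 346 to 388 FPKM with PM2.5, most of it from Nr4a1 and Fn1, while Ly6c2 was listed at 0 in 5 of 6 libraries.

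Markers of most other cells were low or absent. Eosinophil markers summed to at most 0.105 FPKM, with Ccr3 and Il5ra listed at 0 in all 6 libraries, T and NK cell markers to at most 5.75 FPKM, and dendritic cell markers to at most 6.26 FPKM. Neutrophil markers summed to 14.6 to 23.2 FPKM, with Retnlg, Elane, Camp and Stfa2l1 listed at 0 throughout. Red cell markers, chiefly haemoglobin genes, reached 39.4 and 57.8 FPKM in the libraries numbered 2 of FA and PM2.5 and at most 0.775 FPKM in the other 4. Lung epithelium markers summed to 95.2 to 156 FPKM with FA and 73.5 to 133 FPKM with PM2.5, mostly Epcam, Cdh1 and Scgb1a1, the club cell secretory protein, which varied between 1.24 and 76.1 FPKM from library to library. Interstitial macrophage markers summed to 74.6 to 207 FPKM with FA and 85.8 to 125 FPKM with PM2.5, B cell markers to at most 24.4 FPKM, and endothelial and fibroblast markers to at most 4.53 FPKM. In no marker list did the summed level separate the groups, and none of the 11 lists had a member past the adjusted threshold. The part of other cells in the differences given here was not tested.

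**Figure D1:**
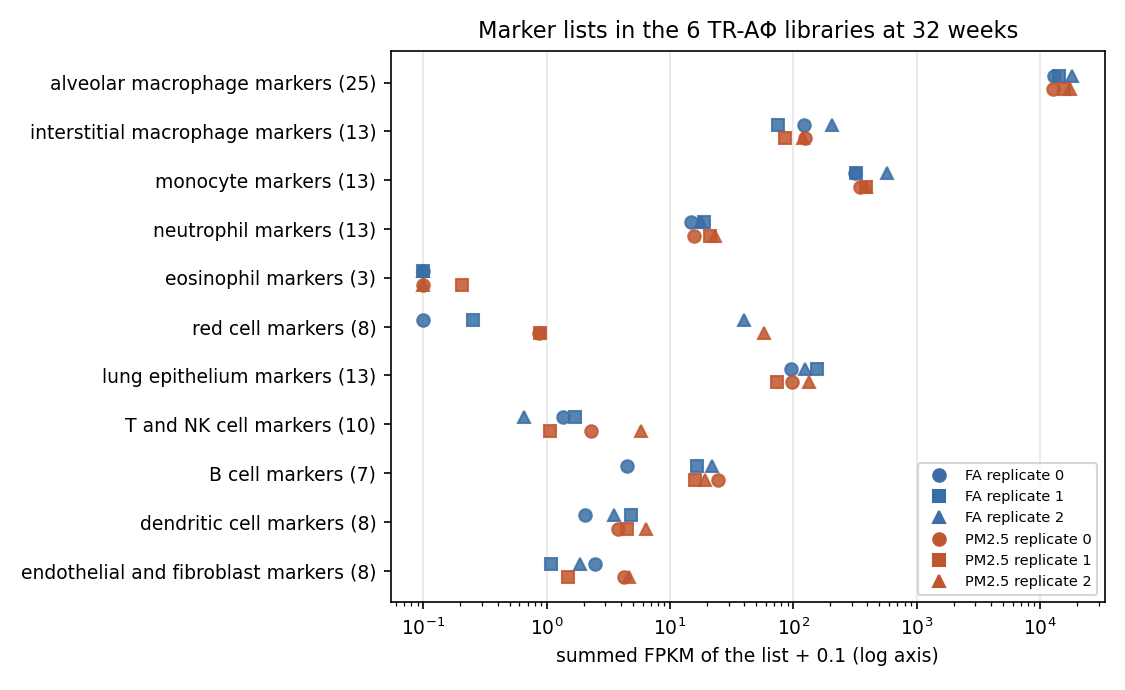
Summed FPKM (plus 0.1, log axis) of each marker list in the 6 TR-AΦ libraries at 32 weeks; the number of listed genes is in brackets, colour gives the exposure and the symbol the replicate. AΦ markers sum to 12893 FPKM or more in every library, and red cell markers stand out in the FA and PM2.5 libraries numbered 2.

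The libraries did not sort by exposure. Over the protein-coding members, Pearson's r of log2(FPKM + 1) between an FA and a PM2.5 library ran from 0.954 to 0.970 with a median of 0.965 over 9 pairs. Within FA the 3 values lay between 0.955 and 0.967, and within PM2.5 between 0.957 and 0.963. A library was thus as like a library of the other exposure as one of its own. Depth cannot be read from FPKM values, so the number of fragments behind each value is unknown here, and in bulk libraries fewer cells of a type and less RNA per cell cannot be told apart.

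After 32 weeks no gene passed the threshold between PM2.5 and FA in the test used here. The study compared the same groups by another test, Cuffdiff, and did report differential genes. Fstl1, Cxcr1 and Marco were among those it gave as higher. Cuffdiff was not run here. Of 12191 genes tested with limma's moderated test, 0 had an adjusted p under 0.05 (0.0%), and the smallest adjusted p was 0.626. At an unadjusted p under 0.05 there were 408 genes, 3.35% of those tested, of which 241 (1.98%) were higher and 167 (1.37%) lower with PM2.5. The groups did not overlap (each PM2.5 library above, or each below, every FA library) in 740 genes, 6.07% of those tested, with 390 higher (3.2%) and 350 lower (2.87%). The median difference over all genes was 0.00 on the log2(FPKM + 1) scale, and 50.3% of the genes had a positive difference.

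The size of what could have been missed depends on the level. For 9282 genes (76.1%) the 95% confidence interval of the difference lay between −1 and 1 on the log2(FPKM + 1) scale, which leaves room for smaller differences. Among protein-coding genes this share was 95.1% at 20 to 100 FPKM, where the median standard error was 0.18, and 77.0% at 1 to 5 FPKM, where it was 0.26. Since 1 is added to each FPKM, such an interval at low levels still leaves room for more than a doubling or halving of FPKM. Only 40 protein-coding genes had a difference of at least 1 in either direction, 29 of them below 5 FPKM and 0 at or above 100 FPKM.

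**Figure D2:**
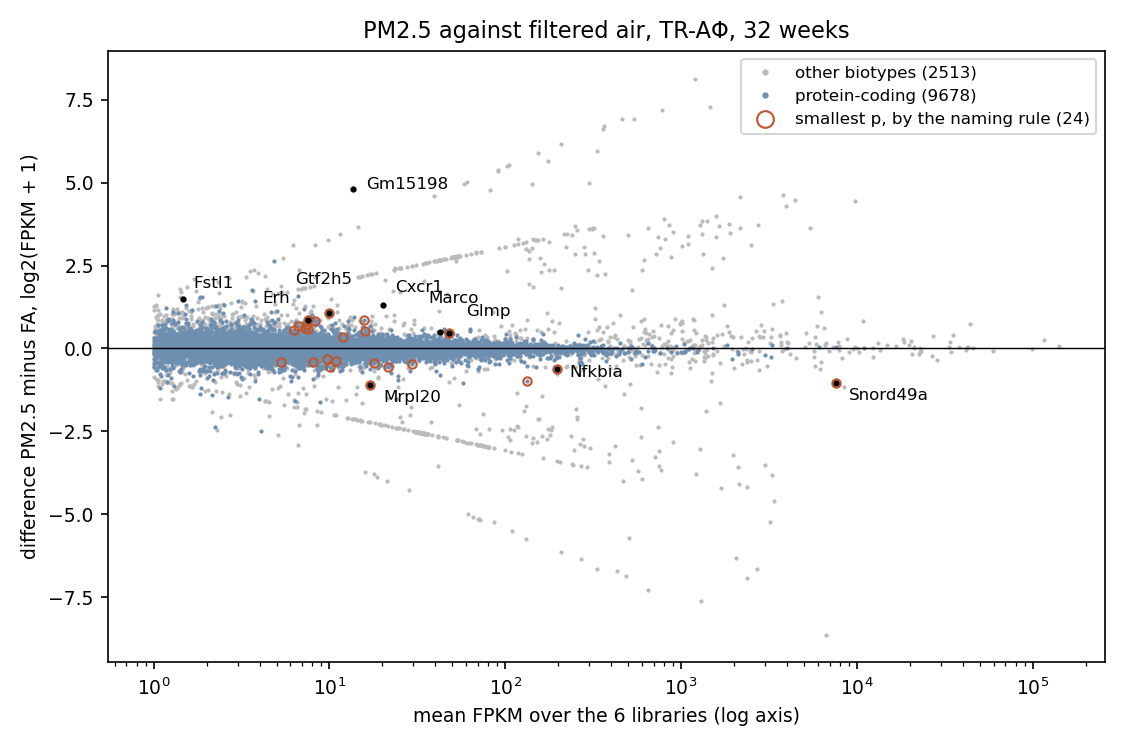
Difference between PM2.5 and FA (log2(FPKM + 1)) against mean FPKM (log axis) for each of the 12191 genes, with protein-coding genes in blue and the 24 genes named for the smallest p ringed. Protein-coding genes lie close to 0 and the widest differences belong to other biotypes. Labelled genes are described in the text.

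The genes that came nearest to a change are named here as the 12 with the smallest p in each direction among those at 5 FPKM or more whose groups did not overlap. Mrpl20, a protein of the large mitochondrial ribosomal subunit (ENSMUSG00000029066.12, chromosome 4, 155802878 to 155809975, GRCm38), read 22.5, 18.4 and 30.7 FPKM with FA and 7.77, 11.2 and 12.2 FPKM with PM2.5. The lowest FA library was above the highest PM2.5 library, and the difference was −1.12 ± 0.20 (standard error, log2 scale; limma adjusted p = 0.626). As for each gene whose groups did not overlap, the exact two-sided permutation test gave p = 0.1, the smallest value that 3 libraries against 3 allow.

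Nfkbia read 201, 205 and 310 FPKM with FA and 156, 171 and 134 FPKM with PM2.5, a difference of −0.61 ± 0.22. FA replicate 2 was the highest value and the groups did not overlap, and without it the difference was −0.41.

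The other protein-coding genes on the lower side included Nudt3, a diphosphoinositol polyphosphate phosphatase (−0.47), Eed, a core subunit of Polycomb repressive complex 2 (−0.38), Wiz, a zinc finger partner of the G9a histone methyltransferase (−0.33), Rit1, a Ras-related GTPase (−0.55), Ipo4, an importin (−0.41), and Yrdc, a tRNA-modifying enzyme (12.8, 12.5 and 11.3 FPKM with FA, 7.73, 8.65 and 7.49 FPKM with PM2.5, −0.56), with Ccdc91 and Tmem138 at −0.40 and −0.44. Nudt3 shares exons with an annotated readthrough gene on its own strand and Ipo4 with Gm49378, so their levels are uncertain. The snoRNA Snord49a, a guide for rRNA methylation, had means of 10198 ± 1395 FPKM with FA and 5087 ± 1615 FPKM with PM2.5 (SD, n = 3). FPKM of genes this short depend strongly on the length correction.

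On the higher side stood Exosc8, a subunit of the RNA exosome that trims and degrades RNA (chromosome 3, 54728678 to 54735393). It read 4.00, 4.58 and 6.12 FPKM with FA and 8.74, 7.88 and 8.19 FPKM with PM2.5, a difference of 0.67 ± 0.15. Erh, a small conserved RNA-binding partner, read 4.29, 5.87 and 4.79 FPKM with FA and 11.4, 12.2 and 6.67 FPKM with PM2.5, a difference of 0.86 ± 0.20, and PM2.5 replicate 2 was close to the FA range. Exosc8 overlaps an exon of Supt20 and Erh of Slc39a9 on the opposite strand, and Glmp, Eed, Wiz, Yrdc, Ccdc91 and Tmem138 have such partners too. Whether strand was used in counting is not given in the sources used here, so reads of such partners may not have been told apart.

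Triap1, a mitochondrial lipid-transfer protein first described as a p53-regulated inhibitor of apoptosis, read 12.6, 12.7 and 8.15 FPKM with FA and 21.7, 19.3 and 20.5 FPKM with PM2.5, with no overlap and a difference of 0.85 ± 0.27. Glmp, a glycoprotein of the lysosomal membrane and the highest expressed of the 12, read 44.4, 41.2 and 34.7 FPKM with FA and 57.1, 53.5 and 56.7 FPKM with PM2.5, a difference of 0.47 ± 0.12. The rest were Slc37a3, a lysosomal transporter (0.60), Emc2 of the membrane protein insertion complex in the endoplasmic reticulum (0.83), Gtf2h5 of the TFIIH repair and transcription complex (1.07), Utp18 of the small ribosomal subunit processome (0.36), Pfdn1 of the prefoldin chaperone (0.56), Mrps18a of the mitochondrial ribosome (0.75), Nipsnap3b (0.60) and the zinc finger factor Zfp217 (0.52).

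**Figure D3:**
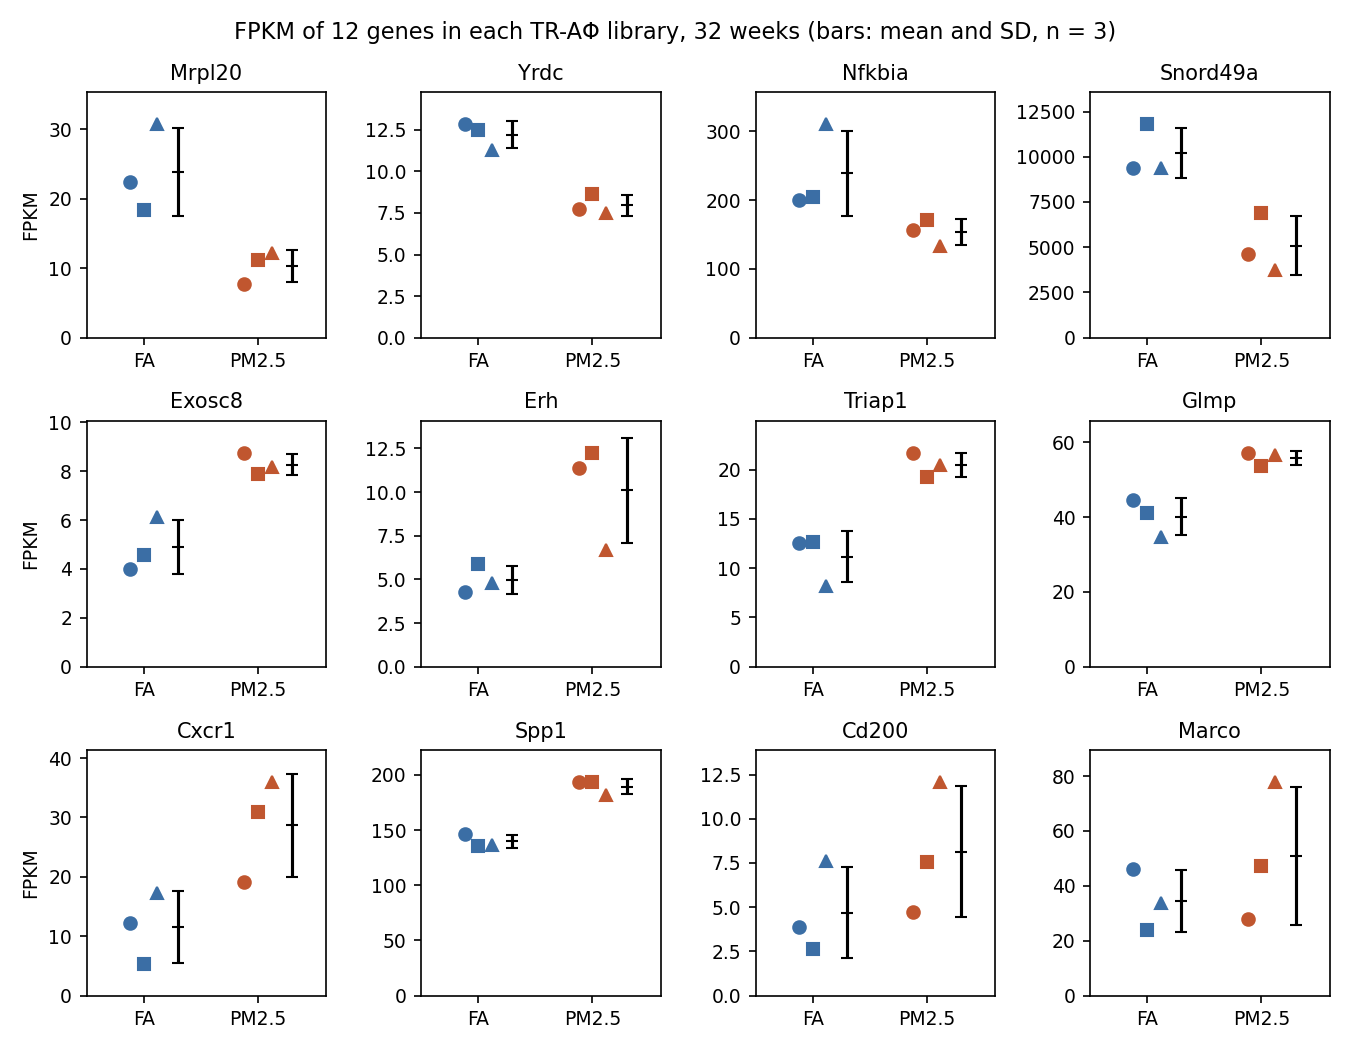
FPKM of 12 genes in each of the 6 libraries (symbols give the replicate, bars the mean and SD of 3 libraries). In the upper 2 rows and for Cxcr1 and Spp1 the groups do not overlap; for Cd200 and Marco they do, with PM2.5 replicate 2 the highest value.

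A further 5 members were listed at exactly 0 in 1 whole group and at 1 FPKM or more in each library of the other. They were Gm15198, RP24-462O14.2, 2010008C14Rik and Gm15206, at 0 in FA, and H2af-ps, at 0 in PM2.5. The processed pseudogene Gm15198 (chromosome 10, 42435889 to 42436065) was listed at 27.2, 30.4 and 24.2 FPKM with PM2.5. It was also listed at 0 in 5 of the 6 BM-AΦ (marrow-derived, CD45.1) libraries and in all 6 TR-AΦ libraries of week 4. It was the 1 gene that passed the threshold when only the 6 libraries compared were fitted. Exact zeros of this table need not mean absent transcripts. Gapdh, a glycolytic enzyme of every cell with many pseudogene copies, was not at 0 but low, at 0.388 to 2.77 FPKM, against 6871 to 8057 FPKM for Actb. The cause of these low values was not tested. Gapdh was the gene against which the PCR of this study was scaled.

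The genes that the study measured by PCR answer the same question for receptors and mediators. It chose them from these RNA data, so their values are no independent evidence of a direction. Of its 10 primer pairs, 9 lay together in a transcript of the intended gene, all wholly in coding exons. Shown are those for the receptor Marco and for Tgfb2, a TGF-β ligand, the only one of the 10 genes whose groups did not overlap. They are given 5′ to 3′, with no base marked in capitals. The Marco primers lie in exons 1 and 2 of 17 on chromosome 1 (forward 120504705 to 120504725, reverse 120494751 to 120494769, GRCm38) and the Tgfb2 primers in exons 3 and 4 of 7 on the same chromosome (forward 186632703 to 186632721, reverse 186632528 to 186632549).
Marco forward: acagagccgattttgaccaag
Marco reverse: cagcagtgcagtacctgcc
Tgfb2 forward: cttcgacgtgacagacgct
Tgfb2 reverse: gcaggggcagtgtaaacttatt

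Marco, the scavenger receptor for unopsonised particles, read 46.1, 23.8 and 33.7 FPKM with FA and 27.9, 47.3 and 77.8 FPKM with PM2.5. The groups overlapped, and the difference of 0.48 had a 95% interval from −0.82 to 1.79. Without PM2.5 replicate 2 it was 0.12. Tgfb2 read 1.66, 2.19 and 1.79 FPKM with FA and 3.08, 2.24 and 2.58 FPKM with PM2.5. Here the groups did not overlap but nearly touched, with a difference of 0.33 and an interval from −0.13 to 0.79.

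Cd200, the ligand of an inhibitory myeloid receptor, read 3.86, 2.64 and 7.60 FPKM with FA and 4.74, 7.58 and 12.1 FPKM with PM2.5 and overlapped. The chemokine receptor Ccr2 overlapped as well, with a difference of 0.42. Cd68, a lysosomal glycoprotein of macrophages, was high, at 581 to 652 FPKM with FA and 638 to 769 FPKM with PM2.5, and Tlr2 and Tlr4, the receptors for bacterial lipopeptides and lipopolysaccharide, differed by 0.11 and −0.03. Mmp9, a gelatinase, and Arg1, arginase, averaged below 1 FPKM and were not tested. In all, 8 of the 10 were tested, 7 had a positive difference, 0 passed the threshold, and the median was 0.37 beside 0.00 over all genes. It ranged from 0.15 to 0.45 as single libraries were left out.

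A second list of 14 genes was drawn mostly from the study's text, so it too was chosen with data of this series known. The study names C3ar1 and Hspa1a for 4 weeks only and TGF-β without a member. Its main text does not name Etf1, Gpd1 or Hspa1b. Of the 14 genes, 12 were tested and 4 did not overlap, beside 6.07% of all genes. Besides Tgfb2 these were Cxcr1, a receptor for CXC chemokines, at 12.2, 5.30 and 17.3 FPKM with FA and 19.1, 31.0 and 36.0 FPKM with PM2.5 (difference 1.32 ± 0.74), and Fstl1, a secreted glycoprotein that acts in TGF-β and BMP signalling, at 0, 0.180 and 0.560 FPKM against 2.69, 1.17 and 4.24 FPKM (1.503 ± 0.776). The fourth was C3ar1, the receptor for the complement fragment C3a, at 1.70, 2.27 and 5.73 FPKM with FA and 0.783, 1.67 and 1.65 FPKM with PM2.5 (−0.74 ± 0.86). The standard errors come from the spread over all 6 macrophage groups in the fit, not from these 6 libraries alone. Cd163 and Gpd1, a haemoglobin scavenger receptor and a glycerol phosphate dehydrogenase, overlapped with differences of −0.57 and −0.47, and Etf1, the translation release factor, with 0.45, where PM2.5 replicate 0 alone was high at 94.5 FPKM.

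No gene of inflammatory signalling passed the threshold. Of 21 NF-κB pathway genes tested, 6 had a positive difference and the median was −0.07, while 2 did not overlap, both lower (2.87% of all genes were), namely Nfkbia and Traf2, an adaptor of TNF receptors (5.64, 4.61 and 6.43 FPKM with FA, 4.05, 4.00 and 4.14 FPKM with PM2.5). Nfkbiz and Bcl3, nuclear IκB proteins, and Tnfaip3, the ubiquitin-editing inhibitor A20, overlapped with differences of −0.67, −0.60 and −0.61. In FA replicate 2 Nfkbiz was at 60.2 FPKM against 20.02 and 29.2 FPKM in the other FA libraries and 14.4 to 27.1 FPKM with PM2.5. The pathway median ranged from −0.23 to −0.01 as single libraries were left out. Without both libraries numbered 2, a fit chosen after seeing the data, it was 0.01. The subunit genes Rela, Rel and Nfkb1 differed by −0.07, −0.04 and −0.19.

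The sequence upstream of Nfkbia is shown because it is the pathway gene with the smallest p and an NF-κB target. A form of the κB site, GGG then any 3 bases then TTCC, was searched on both strands in the 250 bases before each RefSeq start (GRCm38.p6). It was found in 4.65% of 32851 promoters, and in 6.24% of the 7705 members that have one in the table. In Nfkbia the match begins at −29 and reads as the motif on the strand opposite to the gene, so the capitals mark its reverse complement. The window is chr12:55492648-55492897, minus strand, written 5′ to 3′ along the gene.
Nfkbia upstream: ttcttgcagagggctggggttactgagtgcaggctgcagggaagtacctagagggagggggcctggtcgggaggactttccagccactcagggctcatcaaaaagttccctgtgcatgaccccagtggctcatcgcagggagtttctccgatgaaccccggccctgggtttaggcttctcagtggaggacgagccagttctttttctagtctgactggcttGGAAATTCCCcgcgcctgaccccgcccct

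Of the 16 pathway genes tested that have a promoter in the table, 8 held the motif. Tnfaip3 was among them and Traf2 was not. Such a match is a description of sequence and not evidence of a used site.

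Chemokines had the lowest median among functional lists with more than 1 gene tested, −0.21 over 16 genes, of which 5 had a positive difference and 0 did not overlap. Ccl6, made constitutively by AΦs and the highest of them, read 2770.2, 3349 and 4499 FPKM with FA and 2025, 3581 and 3296 FPKM with PM2.5. Cxcl2, a neutrophil attractant whose difference was −0.57 and −0.09 without FA replicate 2, read 165, 82.8 and 320 FPKM with FA and 102, 131 and 99.0 FPKM with PM2.5. The FA libraries spread over a wider range than the difference between the groups, and the chemokine median ranged from −0.55 to 0.07 as single libraries were left out, the highest value being that without FA replicate 2. Cytokines (9 tested) had a median of −0.12, with Tnf at −0.22 and Il1b at −0.37, and the median ranged from −0.39 to 0.31 with 1 library left out, turning positive when it was FA replicate 2. Immediate early genes such as Fos and Dusp1, which handling of cells can switch on, had a median of −0.12, with 4 of 20 positive, and heat shock genes −0.16, with 2 of 16 positive. With single libraries left out the first median ranged from −0.31 to −0.04 and the second from −0.34 to 0.01, above 0 without PM2.5 replicate 0. In neither list was there a member whose groups did not overlap.

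Lists for phagocytosis and sensing lay near 0. Scavenger receptors (11 tested, 7 positive) had a median of 0.11 and no member without overlap. The β-glucan receptor Clec7a was among the highest, at 460 to 582 FPKM with FA and 549 to 777 FPKM with PM2.5. The 16 tested genes of Toll-like receptor signalling had a median of 0.00, and the 24 lysosomal genes 0.02, where the intervals of 23 stayed within −1 and 1. The cathepsins Ctsd and Ctss, the most abundant of these, differed by −0.01 and 0.01. The complement list had a median of −0.03 over 11 genes and the MHC list −0.10 over 14, with Cd74, the invariant chain, at −0.18.

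No gene of lipid handling, the resident task of AΦs, passed the threshold. Cholesterol and fatty acid synthesis (19 tested) had a median of −0.02 and lipid uptake, storage and efflux (17 tested) −0.01. Abcg1, the sterol exporter, read 681, 724 and 727 FPKM with FA and 669, 638 and 709 FPKM with PM2.5, and Plin2, a lipid droplet coat protein, differed by 0.02. Among 16 fatty acid oxidation genes 3 did not overlap, all lower, beside 2.87% of all genes lower without overlap: Ehhadh, a peroxisomal enzyme, at 15.4, 17.2 and 15.5 FPKM with FA and 11.4, 11.8 and 11.8 FPKM with PM2.5 (−0.42 ± 0.16), Acadvl (−0.19) and Hadha (−0.13), both of mitochondrial β-oxidation. The list median was −0.01, and the rate-limiting Cpt1a differed by −0.01. Cidec, a lipid droplet protein, was the only AΦ marker of 25 without overlap, beside 6.07% of all genes. It read 144, 147 and 158 FPKM with FA and 134, 117 and 131 FPKM with PM2.5.

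Stress programmes tied to particles showed no call either. NRF2 targets (18 tested) had a median of −0.09 with 7 positive, and Hmox1, haem oxygenase, read 74.7, 64.3 and 122 FPKM with FA and 66.8, 76.2 and 55.5 FPKM with PM2.5, overlapping. Both ferritin chains were high, Ftl1 at 3729.9 to 4229 FPKM with FA and 3774 to 4139.6 FPKM with PM2.5. In the aryl hydrocarbon and metal response the targets Cyp1a1 and Cyp1b1 were listed at 0 in all 6 libraries, and the metallothionein Mt1 differed by 0.12. Slc11a2, a metal ion transporter, did not overlap, at 2.48, 2.74 and 4.08 FPKM with FA and 4.14, 4.91 and 5.90 FPKM with PM2.5, with an edge between the groups of less than the spread inside either. The nitric oxide synthase Nos2 was listed at 0 throughout.

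No gene of self-renewal or cell death passed the threshold. Of 26 proliferation genes, 19 had a positive difference and the median was 0.10, but 0 did not overlap, and the median ranged from −0.17 to 0.28 as single libraries were left out. Ube2c, a mitotic ubiquitin-conjugating enzyme, had the largest difference (0.85), carried by PM2.5 replicate 2 at 12.1 FPKM. Of 20 apoptosis genes, 12 were positive, the median was 0.03 and 0 did not overlap. Of 15 CDK inhibitors and p53 targets tested, 2 did not overlap, beside 6.07% of all genes. Cdkn2b was higher (0.38) and Zmat3 lower (−0.22), and Cdkn2b differed by 0.09 without FA replicate 2, which alone was low. Spp1, the matrix protein osteopontin, stood out for tight replicates: 147, 136 and 137 FPKM with FA against 193, 194 and 181 FPKM with PM2.5, a difference of 0.44 ± 0.21. Spp1 overlaps an exon of Gm42793 on its own strand, so its level is uncertain too.

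The remaining lists held at most 2 members each without overlap, beside 6.07% of all genes. TGF-β signalling (13 tested, 8 positive) had a median of 0.01, and beyond Tgfb2 and Fstl1 its members overlapped. Tgfb1, the most abundant ligand gene of the family here, read 187, 168 and 180 FPKM with FA and 201, 156 and 161 FPKM with PM2.5, and its receptors Tgfbr1 and Tgfbr2 differed by 0.00 and 0.02. Chemokine receptors (8 tested) had the highest median of the functional lists, 0.15, which was 0.01 without PM2.5 replicate 2 and up to 0.27 with another library left out, with Cxcr1 the member without overlap. Matrix remodelling (11 tested) had a median of −0.07 and Spp1 as its member without overlap.

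Glycolysis and hypoxia (18 tested, 5 positive) had a median of −0.05. Its member without overlap was Eno1, the glycolytic enzyme enolase, at 39.9, 43.0 and 42.7 FPKM with FA and 34.31, 34.97 and 36.96 FPKM with PM2.5, a difference of −0.24. The clock genes (10 tested) had a median of −0.09, and their member without overlap was the repressor Per1, at 33.6, 34.5 and 33.3 FPKM against 31.1, 29.8 and 15.7 FPKM. PM2.5 replicate 2 was the low one there. The hour at which each mouse was killed is not given in the sources used here.

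Interferon-induced genes (9 tested), inhibitory receptors and ligands (12 tested) and genes of haem and iron handling (10 tested) had medians of 0.02, 0.02 and 0.03. Sirpa, the receptor for the don't-eat-me signal Cd47, differed by 0.00 at a mean of 509 FPKM. The eosinophil-associated ribonucleases, which AΦs of mice express in quantity, had a median of −0.09 over 6 genes, with Ear2 at 1639.7 to 2661 FPKM with FA and 1626 to 2545 FPKM with PM2.5. In all 29 lists of functional genes 0 members passed the adjusted threshold.

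**Figure D4:**
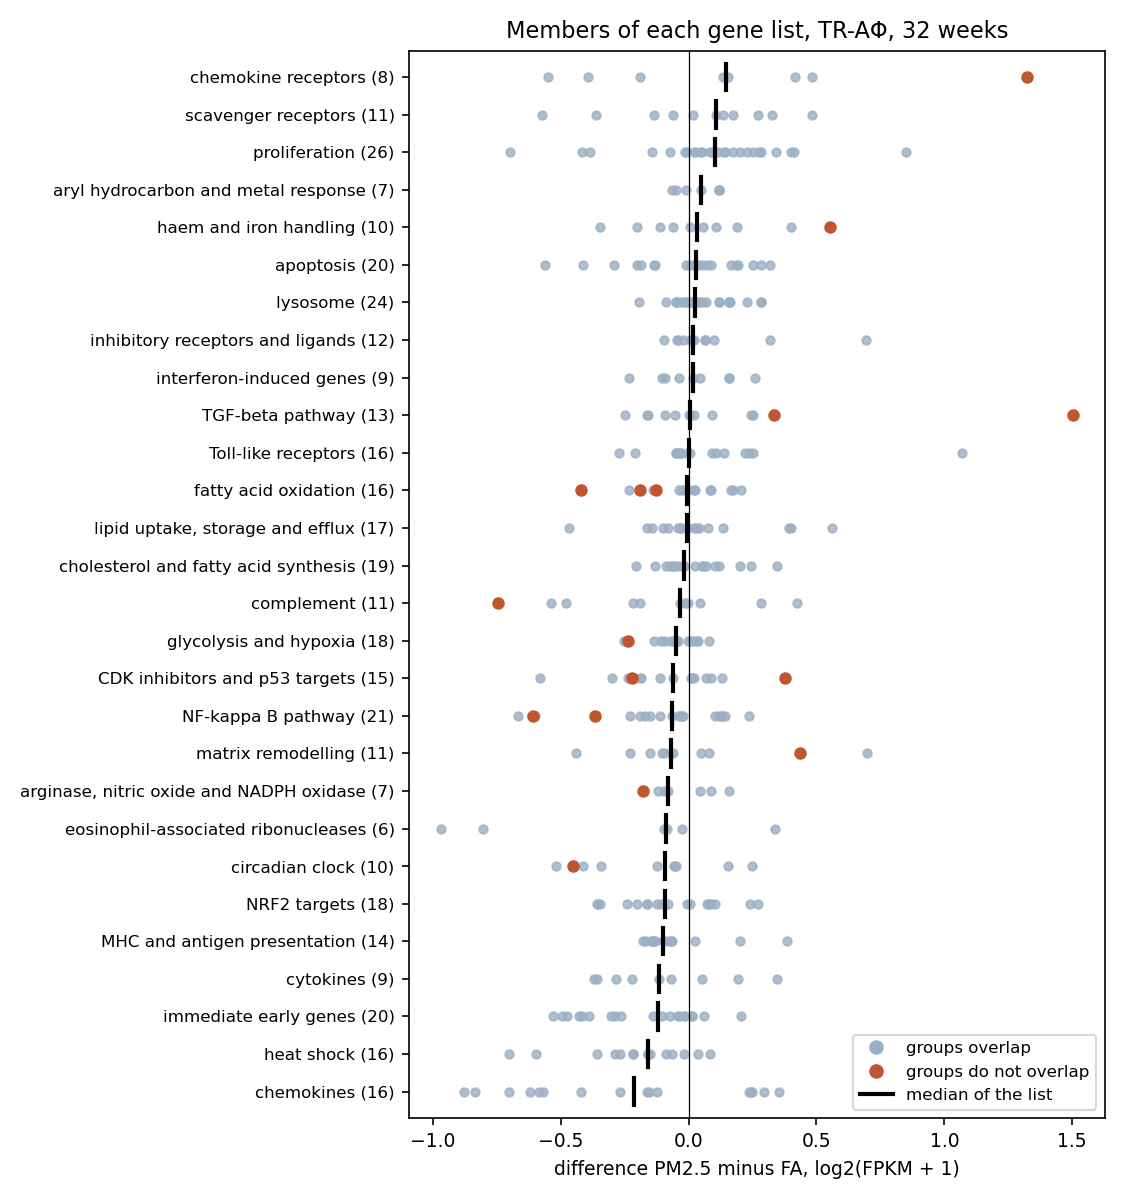
Difference between PM2.5 and FA for each tested member of the gene lists (one row a list, number tested in brackets), with the list median as a bar and members whose groups do not overlap in orange. The medians lie between −0.21 and 0.15, and single members without overlap lie on both sides of 0.

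The 32-week effect in TR-AΦ was then set against 4 weeks of exposure and against marrow-derived AΦs (BM-AΦ, CD45.1) of the same week, each with its own FA and PM2.5 libraries. Between 32 and 4 weeks the effect differed past the threshold in 1 of 12191 genes (0.0082%), Cdk8, and between TR-AΦ and BM-AΦ in 2 (0.0164%), Cdk8 and Gm26917 (limma interaction, adjusted p under the threshold). In both, the libraries listed at 0 lay outside the 32-week TR-AΦ. Cdk8, a kinase of the Mediator complex, read 10.3, 13.1 and 14.3 FPKM with FA and 11.8, 10.6 and 11.4 FPKM with PM2.5, while it was listed at exactly 0 in all 3 PM2.5 libraries of week 4 and in all 3 FA libraries of BM-AΦ. Gm26917, a lincRNA, was listed at 0 in the FA libraries of BM-AΦ and at 22621 FPKM or more in each TR-AΦ library of 32 weeks. At an unadjusted p under 0.05 the interaction with time had 376 genes (3.08%) and that with origin 242 (1.99%).

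Of the 24 genes with the smallest p, Nfkbia had a BM-AΦ difference of nearly the TR-AΦ size, −0.56 ± 0.22, and Yrdc one of −0.49. At 4 weeks Nfkbia differed by −0.03 and Yrdc by −0.45. Mrpl20 and Exosc8 had the opposite sign in BM-AΦ, 0.47 ± 0.20 and −0.60 ± 0.15. Their interactions missed the threshold, with an adjusted p by limma of 0.218 for Mrpl20 and 0.132 for Exosc8, and Exosc8 passed it without FA replicate 2. In all, 17 of the 24 had the same sign in BM-AΦ and 10 at 4 weeks, beside 56.8% and 50.2% of all members. Since the 24 were chosen on the 32-week TR-AΦ values, those values lie farther from 0 by that choice. TR-AΦ and BM-AΦ may come from the same mice, and the labels do not say which. Whether same-numbered libraries of both origins share a mouse was not tested. The main fit treated all libraries as independent, so the interaction with origin ignores any such pairing. If mice were shared, a like difference in BM-AΦ is no result from separate animals.

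**Figure D5:**
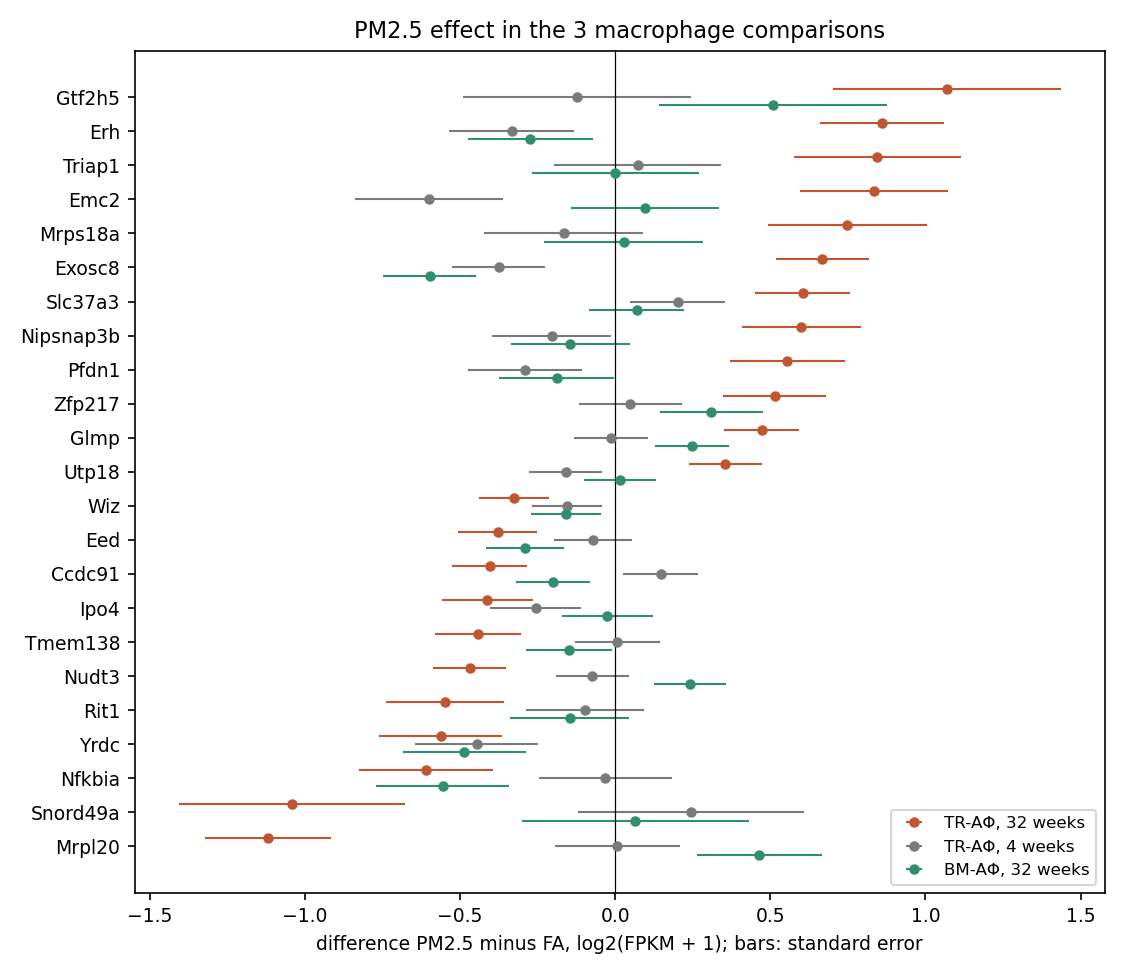
PM2.5 effect (log2(FPKM + 1) difference, bars standard errors) of 23 of the 24 genes with the smallest p in TR-AΦ at 32 weeks, beside the effect in TR-AΦ at 4 weeks and BM-AΦ at 32 weeks. Nfkbia and Yrdc lie at similar values in both 32-week comparisons, and Mrpl20 and Exosc8 lie on opposite sides of 0.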

How the data were processed

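Sorted AΦs were sequenced after RNeasy extraction and SMARTer library preparation. Per the submitters' notes and the study's methods the authors trimmed adapters with TrimGalore, aligned to mm10 with STAR and quantified with Cufflinks. They tested pairs of groups with Cuffdiff at a q-value under 0.05. The deposited values are FPKM per gene and library, normalized by the authors for length and mapped fragments; no counts were used, so depth per library is unknown. FPKM were taken as log2(FPKM + 1), which understates changes of low genes, and fitted with limma 3.58.1 (R 4.3.3, trended moderation) as group means over the 18 macrophage libraries of 6 groups, with Benjamini-Hochberg adjustment over the 12191 members at a threshold of 0.05. The script was tested on simulated data. Errors of differences are standard errors of that fit. Single genes were also tested by exact two-sided permutation. Positions come from GENCODE M21 (GRCm38, the build named mm10 by the authors), matched by gene ID for 12162 members, and promoters from RefSeq.

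Named genes were the PCR genes of the study and the list drawn mostly from its text. Added were up to 12 per direction by smallest p (at least 5 FPKM, no overlap, no library at 0, no predicted or pseudogene symbol). Up to 6 listed at 0 in 1 group and, in each list, up to 4 without overlap and the 2 highest were named too. Other list members were named after their values were seen, as were Gapdh, Actb, Cdk8 and Gm26917. Some genes that the rule selects are not reported here. The members and lists were chosen with earlier results of these data known. A symbol on 2 rows was kept for its only protein-coding row. The methods call the 3 libraries of a group biological replicates, and p-values cover the spread between those libraries. Alternatives covered pseudocount, filter, scaling, the samples fitted, a replicate block and leaving out libraries.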

Additional observations from a re-analysis of the deposited data

Results flagged for a closer look

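In 2 genes the PM2.5 effect differed between groups by the interaction test of limma. For Cdk8 the effect in TR-AΦ at 32 weeks exceeded that at 4 weeks by 3.56 on the log2(FPKM + 1) scale, and its difference from BM-AΦ at 32 weeks was −3.77. For Gm26917 the difference of the TR-AΦ effect from that in BM-AΦ was −15.07. In each case 1 group of 3 libraries of the other comparison was listed at exactly 0 (Cdk8 in PM2.5 at 4 weeks and in FA of BM-AΦ, Gm26917 in FA of BM-AΦ), while the 32-week TR-AΦ differences themselves were −0.14 and −0.34. An exact 0 in this table can be a failed estimate, and the 3 interaction values are set by the added pseudocount of 1 where a group is at 0, so they are neither fold changes nor bounds. Whether the zeros are measurements was not tested.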

How the results depend on the processing

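For PM2.5 against FA, 0 genes passed under the other pseudocount, both filters, quantile and median-ratio scaling, with between 396 and 747 genes at an unadjusted p under 0.05. Fitting only the libraries of the groups compared gave 1, Gm15198, and 2 for the difference between 32 and 4 weeks. Leaving out 1 library gave 0 to 4 genes for PM2.5 against FA, 1 to 3 for 32 against 4 weeks and 2 to 5 for TR-AΦ against BM-AΦ: 2 without FA replicate 2, 4 without PM2.5 replicate 0 and 1 without PM2.5 replicate 2 in the first, 3, 3 and 2 in the second, and 5, 5 and 3 in the third. The 7 genes of the first (Gm22148, n-R5s219, Gm13245, Gm19427, Gm29284, Snord58b and Gm25482) are small RNAs, rRNAs or pseudogenes at 0 in some libraries, so that the library left out had made the groups overlap. Chosen after seeing the data, a fit without both libraries numbered 2 gave 3, 5 and 6 genes in the 3 comparisons, and protein-coding genes alone gave 0, 1 and 1, with Gm26917 no longer tested.

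Same-numbered FA and PM2.5 libraries correlated in their deviations at 0.176, −0.0211 and 0.205, and FA replicate 1 did not correlate best with its own number, so the numbers were not taken as pairs. The first component of the protein-coding genes (32.5% of the variance) nonetheless placed the libraries numbered 0 at −22.9 and −17.6, those numbered 1 at 0.35 and −0.44 and those numbered 2 at 21.5 and 19.1, for FA and PM2.5. With the replicate block 0 genes passed and 573 were at an unadjusted p under 0.05, and it left the interaction counts at 1 and 2. Of 127 named genes 1 passed under any alternative (Gm15198), and 128 of 1889 values changed sign. Of the list medians 14 of 525 moved by more than the spread between libraries, and 68 of 525 changed sign.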
